A study of Mus musculus with 3 samples.

Results

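Splenic follicular regulatory T (Tfr) cells were compared with and without raptor for 9 genes that steer lymphocyte position and egress: the sphingosine 1-phosphate (S1P) receptor genes S1pr1, S1pr2 and S1pr4, the oxysterol receptor gene Gpr183, and the transcription factor genes Klf2, Klf3, Foxo1, Foxo3 and Satb1. They are 9 of the 18193 genes named on the array, and all probe sets annotated to 1 of these symbols alone were taken, which gave 26 of 45101. A further probe set that named Foxo3 together with a second gene was left out. The Rptor-null cells came from CD4-Cre Rptor fl/fl mice and were pooled from 8 mice for each of 2 arrays, which the labels call biological replicates. The wild-type (WT) cells formed 1 pool of 4 mice on 1 array. All mice were of C57BL/6 background and had been immunized with OVA 8 days before the sort, and their ages and sexes were not given in the labels. CD4-Cre deletes in every lineage that has passed through a CD4-expressing stage, so the deletion was not limited to Tfr cells. The sort used CD4, CD44, GITR, CD25 and CXCR5 on lineage-depleted cells. Rptor, the targeted gene, read 353 and 412 in the Rptor-null pools against 365 in WT on its brighter kept probe set (limma adjusted p = 0.852). The pools lay on either side of WT, so the signal of that probe set was not lower in both. Whether its probes lie in the deleted stretch is not given in the sources used here, so this reading does not check the labels.

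S1P is abundant in blood and lymph and scarce inside lymphoid tissue, and S1PR1 lets lymphocytes follow that gradient out of the tissue. S1PR2 couples to the G protein subunit encoded by Gna13 and holds cells inside the germinal centre, while GPR183 draws cells towards oxysterols at the outer follicle. KLF2 is a transcriptional activator of S1pr1. FOXO1 is upstream of KLF2 and leaves the nucleus when AKT, a kinase that mTORC2 also phosphorylates, is active. SATB1 organizes chromatin in T cells, and Foxp3 represses its gene in regulatory T cells.

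The 3 genes with a difference past the test were Satb1 and Klf2, which were higher in Rptor-null cells, and Gpr183, which was lower on 1 of its 2 probe sets. Their promoter windows are shown so that the transcripts behind these results can be placed. Each runs 5′ to 3′ on the gene's strand over 300 bases around a RefSeq start site in GRCm38.p6. Capitals mark matches to 1 of 4 motifs searched on both strands: TGTTTAC for FOXO factors, CCACACCC for the CACCC box of KLF factors, GGGCGG for the GC box of SP and KLF factors, and, for MEF2, CTA and TAG with any 4 bases between them. The windows are Klf2 at chr8:72318812-72319111 on the plus strand, Satb1 at chr17:51832598-51832897 on the minus strand, which is 1 of 5 windows listed for that gene, and Gpr183 at chr14:121965144-121965443 on the minus strand.
Klf2: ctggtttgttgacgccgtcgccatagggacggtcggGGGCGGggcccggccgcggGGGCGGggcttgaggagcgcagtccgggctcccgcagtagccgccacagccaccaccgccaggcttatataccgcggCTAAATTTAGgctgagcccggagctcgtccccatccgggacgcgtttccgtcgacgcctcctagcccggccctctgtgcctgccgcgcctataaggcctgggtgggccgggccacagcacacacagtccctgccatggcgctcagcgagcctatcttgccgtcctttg
Satb1: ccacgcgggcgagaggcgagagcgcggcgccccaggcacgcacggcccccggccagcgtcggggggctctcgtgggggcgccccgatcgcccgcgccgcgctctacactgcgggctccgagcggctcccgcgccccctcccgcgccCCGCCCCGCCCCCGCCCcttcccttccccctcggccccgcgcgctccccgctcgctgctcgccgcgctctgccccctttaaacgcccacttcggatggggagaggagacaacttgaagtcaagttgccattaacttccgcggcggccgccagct
Gpr183: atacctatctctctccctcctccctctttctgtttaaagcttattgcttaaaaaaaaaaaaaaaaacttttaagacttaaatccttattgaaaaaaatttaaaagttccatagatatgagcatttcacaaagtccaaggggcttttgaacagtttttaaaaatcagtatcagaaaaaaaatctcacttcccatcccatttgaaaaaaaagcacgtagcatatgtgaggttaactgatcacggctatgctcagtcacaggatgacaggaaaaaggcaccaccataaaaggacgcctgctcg
The Klf2 window held 1 MEF2 match, CTAAATTTAG, from 118 to 109 bases before the start site, and 2 GC boxes. The Satb1 window held 3 GC boxes, the first 2 of which overlap by 1 base, and was shown for them after the search. The Gpr183 window held no match to any of the 4 motifs and had 35.3% G and C, against 69.3% in the Klf2 window and 76.7% in the Satb1 window. Over all 32841 windows of this length, 3.65% held the FOXO letters, 3.56% the CACCC box, 35.7% the GC box and 3.69% the MEF2 letters. None of the 12 windows listed for 8 of the 9 genes held the FOXO letters. A match describes letters in the window and does not show binding.

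Values are deposited probe-set intensities on a linear scale. Differences are Rptor-null minus WT on the log2(intensity + 16) scale, with the limma standard error (SE), and each fold is on that scale, which understates changes of dim probe sets. Levels of different probe sets are not comparable with each other. Of the 26 probe sets, 24 passed the filter on low values, a mean of the 2 group levels above 34.998 intensity units. The 2 others, 1 of Foxo1 and 1 of Foxo3, were dim on all 3 arrays.

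At an adjusted p under 0.05, 2.81% of all 27022 tested probe sets were higher in Rptor-null cells, 6.11% were lower and 8.92% passed in either direction. Among the 24 tested here, 5 were higher, 1 was lower and 18 did not pass. The 5 higher ones belonged to 2 genes, 4 of them to Satb1, so they are not 5 separate observations. One of these 4, 1439315_at, was tested only through its high Rptor-null values, and without it 4 probe sets were higher. Both Rptor-null values lay on the same side of WT for 21 of the 24 (87.5%), against 79.6% of all probe sets tested, a share near that background. In both pools 10 were above WT and 11 below, against 35.8% and 43.9% of all probe sets. The median difference was -0.019 over the 24 and -0.029 over all probe sets. These calls rest on 1 WT array, assumed to vary like the Rptor-null arrays, and on a variance prior that follows the intensity. Without that trend none of the 24 passed, and over all probe sets 1 was higher and 1 lower.

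**Figure D1:**
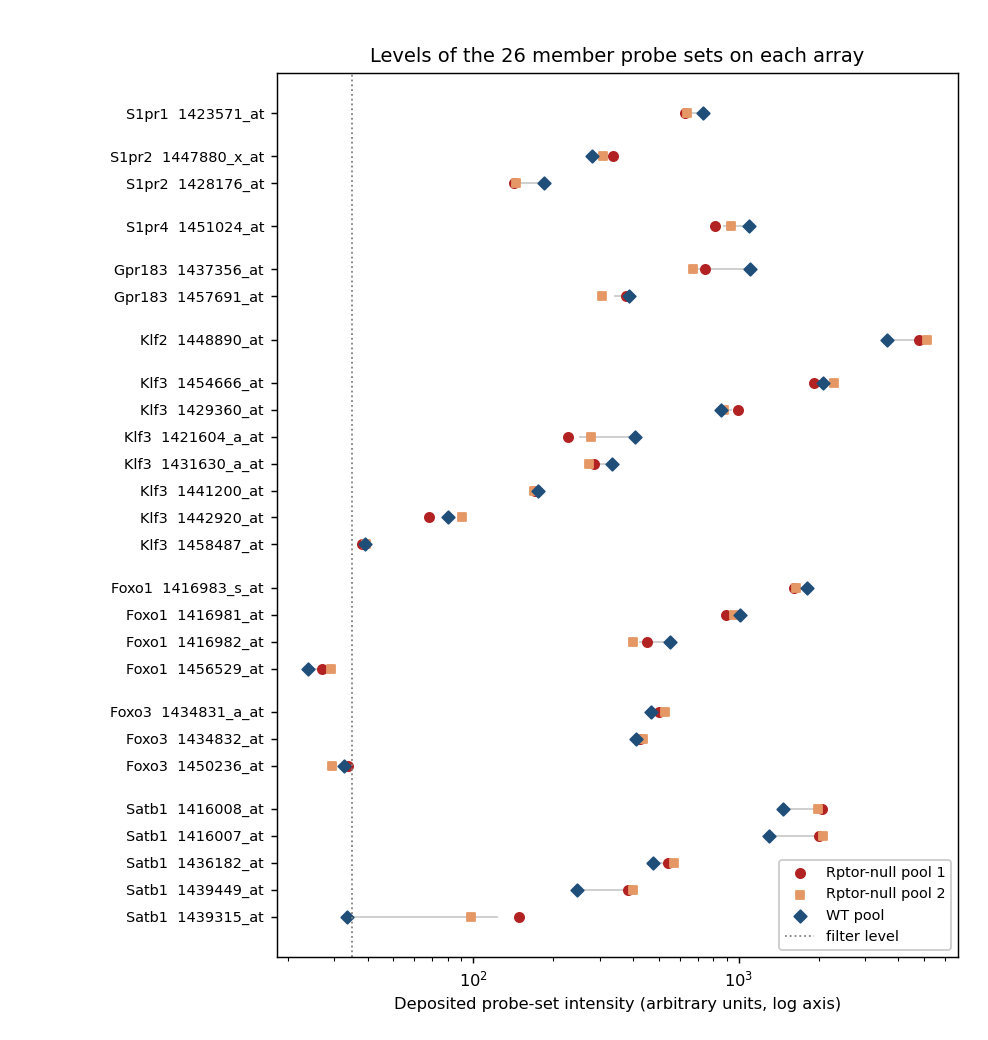
Deposited intensity (log axis) of each of the 26 probe sets in Rptor-null pool 1 (circles), Rptor-null pool 2 (squares) and the WT pool (diamonds). A grey line joins the Rptor-null mean to WT, and the dotted line is the filter level of 34.998. Klf2 and the 4 Satb1 probe sets with a WT value above the filter level have both Rptor-null points to the right of WT. Gpr183 1437356_at has both to the left.

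S1pr1, the egress receptor, had 1 probe set, which read 627 and 637 in the Rptor-null pools and 733 in the WT pool. The Rptor-null pools lay close together below WT, but the difference of -0.21 ± 0.12 (SE) did not pass (limma adjusted p = 0.332), with a 95% interval from -0.49 to 0.071. S1pr4, an S1P receptor expressed in haematopoietic cells, read 818 and 936 in the Rptor-null pools against 1093 in WT. Its difference was -0.32 ± 0.13 (SE; limma adjusted p = 0.18). Both receptor genes lay below WT in both pools, as did 43.9% of all tested probe sets, and neither difference was large enough to pass.

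The probe sets of S1pr2, the germinal centre confinement receptor, pointed in opposite directions. The probe set 1447880_x_at read 336 and 308 in the Rptor-null pools and 280 in WT, a difference of 0.19 ± 0.14 (SE; limma adjusted p = 0.472). The probe set 1428176_at read 142 and 145 in the Rptor-null pools and 185 in WT, a difference of -0.34 ± 0.16 (SE; limma adjusted p = 0.256). The suffix _x_at marks a probe set that can match other transcripts. No direction can be given for S1pr2 from these 2 probe sets.

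Gpr183, also known as EBI2, was lower in Rptor-null cells on its brighter probe set, 1437356_at. It read 748 and 672 in the Rptor-null pools against 1106 in WT, or 1.55-fold lower (log2 difference -0.63 ± 0.12, SE; limma adjusted p = 0.0288). The groups were well separated there, since the gap between the Rptor-null arrays was 0.15 on the same log2 scale. The second probe set, 1457691_at, read 377 and 305 in the Rptor-null pools against 386 in WT. In that probe set pool 1 lay just under WT, and the difference of -0.18 ± 0.17 (SE) did not pass (limma adjusted p = 0.569). The call was lost after quantile normalization (adjusted p = 0.0604), when both probe sets were averaged (0.0745) and with no filter (0.0504).

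Klf2 had 1 probe set, which was higher in Rptor-null cells. It read 4791 and 5139 in the Rptor-null pools against 3626 in WT, or 1.37-fold higher (log2 difference 0.45 ± 0.090, SE; limma adjusted p = 0.0305). The Rptor-null pools differed from each other by 0.10 and from WT by 0.40 and 0.50. The difference of S1pr1, listed above, did not pass (limma adjusted p = 0.332), so no change of S1pr1 can be set beside that of Klf2. With no filter the adjusted p of Klf2 was 0.0518.

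Klf3 encodes a KLF factor that acts mainly as a repressor, and its 7 probe sets gave no common direction. The brightest, 1454666_at, read 1928 and 2291 in the Rptor-null pools with WT between them at 2073. The largest difference was on 1421604_a_at, which read 227 and 279 in the Rptor-null pools and 406 in WT, a difference of -0.66 ± 0.17 (SE; limma adjusted p = 0.0582). Median centring brought it past the threshold (adjusted p = 0.0378), as did a filter at the 60th percentile (0.0415). Of the other 5, 1429360_at was above WT in both pools, 1431630_a_at and 1441200_at were below, and 1442920_at and 1458487_at straddled WT, with differences between -0.25 and 0.12.

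Foxo1 had 3 tested probe sets, none past the test. All were below WT in both Rptor-null pools, as were 43.9% of all tested probe sets. The brightest, 1416983_s_at, read 1611 and 1645 in the Rptor-null pools against 1816 in WT (difference -0.16 ± 0.098, SE; limma adjusted p = 0.388). The probe set 1416982_at read 451 and 399 against 549 in WT, and the difference of -0.36 ± 0.14 (SE) was the largest of the 3 (limma adjusted p = 0.166). The third, 1416981_at, differed by -0.12 and had a difference of 0.0027 after quantile normalization. The dim probe set 1456529_at read 26.9 and 29.2 in the Rptor-null pools and 23.8 in WT and was not tested.

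Foxo3, which shares many target genes with Foxo1, had 2 tested probe sets. Both lay slightly above WT in both Rptor-null pools, as did 35.8% of all tested probe sets. The probe set 1434831_a_at read 503 and 530 in the Rptor-null pools and 469 in WT (difference 0.13 ± 0.13, SE; limma adjusted p = 0.578). The probe set 1434832_at read 426 and 437 against 409 in WT, a difference of 0.075 with a 95% interval from -0.23 to 0.38. The first difference was close to its SE and the second below it, and the intervals do not show that the levels were equal. The untested 1450236_at read 33.9 and 29.3 in the Rptor-null pools and 32.6 in WT.

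Satb1 was higher in Rptor-null cells. Of its 5 probe sets, 4 had a WT value above the filter level. These 4 were above WT in both Rptor-null pools, as were 35.8% of all tested probe sets, and 3 of the 4 passed. The probe set 1416007_at read 2015 and 2081 in the Rptor-null pools against 1304 in WT, or 1.56-fold higher (difference 0.64 ± 0.098, SE; limma adjusted p = 0.016). The probe set 1416008_at read 2068 and 1987 against 1468 in WT, or 1.38-fold higher (adjusted p = 0.0364). The probe set 1439449_at read 382 and 398 against 246 in WT, or 1.55-fold higher (adjusted p = 0.0386). In these 3 the Rptor-null pools were close together and far from WT. The probe set 1436182_at read 543 and 569 against 477 in WT and did not pass (difference 0.21 ± 0.12, SE; adjusted p = 0.352).

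The fifth Satb1 probe set, 1439315_at, was the only one of the 24 at least 2-fold from WT in both pools, as 0.392% of all tested probe sets were in the upward direction; none was 2-fold lower in both, against 0.659%. It read 149 and 97.8 in the Rptor-null pools and 33.4 in WT, so both Rptor-null values were well above WT. The WT value lay below the filter level, so the probe set entered the test only through its Rptor-null values, and its passing the test is no support for Satb1. The size of its difference depended on the pseudocount: 1.82 with 1, 1.47 with 16 and 0.93 with 64 on the log2 scale. The Rptor-null pools differed from each other by 0.53 here, the widest gap among the 24. With no filter, 1416007_at was still past the threshold (adjusted p = 0.0292), while 1416008_at (0.0644) and 1439449_at (0.0636) were not.

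**Figure D2:**
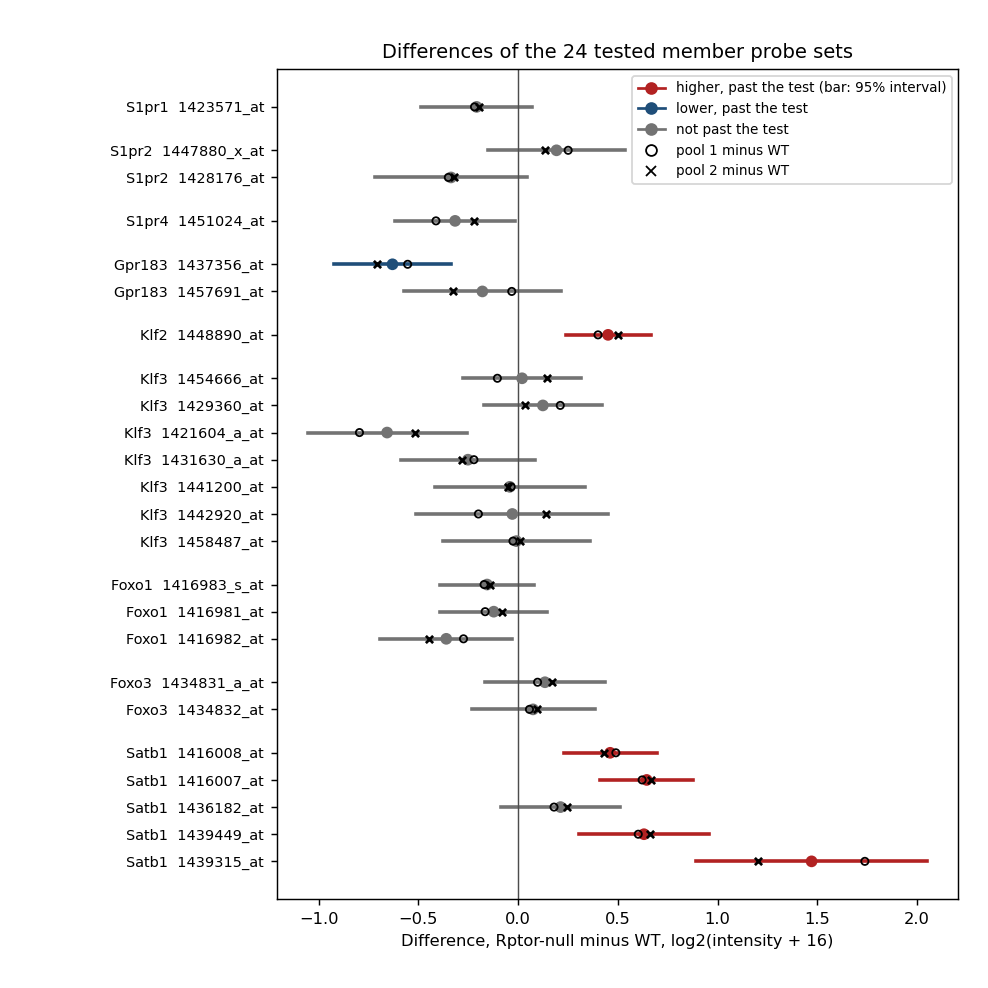
Difference between Rptor-null and WT on the log2(intensity + 16) scale for the 24 tested probe sets. Filled points are the fitted differences with 95% intervals from limma, open circles are Rptor-null pool 1 minus WT and crosses are pool 2 minus WT. The 5 red intervals (Klf2 and 4 of Satb1) and the blue one (Gpr183 1437356_at) passed at an adjusted p under 0.05.

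Genes around the members were read on the brightest kept probe set of each gene, with p-values from the same fit. Over all 12721 genes 2.76% were higher and 7.62% lower, with a median difference of -0.060. In the S1P and GNA13 list, 2 of 21 genes were higher, 2 lower and 17 did not pass, with a median of 0.057. Plpp3, a phosphatase that degrades S1P outside the cell, read 548 and 608 in the Rptor-null pools against 268 in WT (adjusted p = 0.0117). The second kept Plpp3 probe set differed by 0.68 and did not pass (limma adjusted p = 0.0589). S1pr3, another S1P receptor gene, read 89.0 and 107 against 47.2 in WT (adjusted p = 0.0386), while its second kept probe set differed by -0.019. Rac2, a GTPase of the lymphocyte cytoskeleton, was 2.12-fold lower, at 2982 and 3109 against 6482 in WT (adjusted p = 0.0074), and Rac1 was 1.35-fold lower (adjusted p = 0.0349). For each of Rac2 and Rac1 the second kept probe set lay slightly above 0, at 0.049 and 0.0996.

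Cd69, whose product pulls S1PR1 off the cell surface, read 2802 and 2084 in the Rptor-null pools with WT at 2176, so the groups overlapped. Gna13 read 2089 and 2273 in the Rptor-null pools against 2306 in WT (adjusted p = 0.685). Of its 7 kept probe sets, 6 had a difference below 0 and 3 of those passed as lower, so the brightest one does not stand for the gene. Among genes of oxysterol synthesis and sensing, 1 of 3 kept genes was higher and none lower, with a median of 0.29. That gene, Cyp27a1, a sterol hydroxylase, read 463 and 494 against 273 in WT (adjusted p = 0.0221). Ch25h and Cyp7b1, which make the ligand of GPR183, were below the filter.

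The other KLF and SP factors had 3 of 16 genes higher, none lower and 13 not past the test, with a median of 0.28. Among the 13, Klf15 read 63.3 and 43.1 in the Rptor-null pools and 27.5 in WT, below the filter level. It was kept only through its Rptor-null values, so its place above 0 is no support for the list median. Sp3 read 1371 and 1273 in the Rptor-null pools against 790 in WT, or 1.66-fold higher (adjusted p = 0.016). Klf4, a factor of myeloid cells and of quiescent T cells, read 2396 and 2496 against 1680 in WT, or 1.45-fold higher (adjusted p = 0.0235). The second kept Klf4 probe set differed by 0.44 and did not pass (limma adjusted p = 0.0621). Klf9 was 1.43-fold higher on its brightest probe set (adjusted p = 0.0424). All 4 of its kept probe sets lay above 0, but the others did not pass (adjusted p = 0.409, 0.311 and 0.134). The last of these read 34.2 in WT, below the filter level, so it was kept only through its Rptor-null values. Its direction is therefore no support for Klf9.

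Among the FOXO family and its kinases, Sgk1 was the only 1 of 20 genes past the test. Sgk1 encodes a kinase that phosphorylates FOXO factors and is itself activated by mTORC2. It read 1852 and 2044 in the Rptor-null pools against 1291 in WT, or 1.50-fold higher (adjusted p = 0.0253), and the list median was 0.078.

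Genes known as FOXO targets had 3 higher, 3 lower and 23 not past the test of 29, with a median of 0.042. Il6ra, a chain of the interleukin 6 receptor, was 1.98-fold higher at 1944 and 1676 against 903 in WT (adjusted p = 0.0113). On its second kept probe set Il6ra differed by 0.35 and did not pass (limma adjusted p = 0.255). Eomes, which is also in the NK and cytotoxic list, was 1.41-fold higher (adjusted p = 0.0371). On the second kept Eomes probe set the pools, at 625 and 456, lay on either side of WT at 470 (limma adjusted p = 0.63). Gadd45b, a stress gene, was 1.65-fold lower (adjusted p = 0.0255) and Sesn3, a sestrin that restrains mTORC1, was 1.50-fold lower (adjusted p = 0.0333). All 3 kept probe sets of Gadd45b lay below 0 and 2 passed. The second kept Sesn3 probe set differed by -0.49 and did not pass (limma adjusted p = 0.0705). Il7r, a survival receptor gene and FOXO1 target, read 4417 and 3934 in the Rptor-null pools against 3812 in WT (adjusted p = 0.494). Ccr7, the lymph node homing receptor gene, read 996 and 1181 against 952 in WT (adjusted p = 0.454). The second kept Il7r probe set read 1424 and 931 in the Rptor-null pools against 749 in WT, a larger difference of 0.61 (limma adjusted p = 0.153). None of these Il7r and Ccr7 differences passed.

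Homing and adhesion genes had 3 higher, 7 lower and 23 not past the test of 33, with a median of -0.19. Cxcr6 was 2.41-fold lower, at 236 and 203 in the Rptor-null pools against 551 in WT (adjusted p = 0.0111), and Icam2, an adhesion molecule, 1.65-fold lower (adjusted p = 0.0163). Cxcr5, the follicle homing receptor on which the cells were sorted, was 1.83-fold lower, at 374 and 392 against 713 in WT (adjusted p = 0.0152). P2ry13, a receptor for ADP, was 1.76-fold higher (adjusted p = 0.0171). In the SATB list 1 of 8 genes was lower and none higher, with a median of -0.065. That gene was Pml, 1.60-fold lower (adjusted p = 0.0419), whose 3 kept probe sets ranged from -0.68 to 0.57. The highest of them read 33.9 in WT, below the filter level, so it was kept only through its Rptor-null values. Its direction is therefore no evidence about Pml. The other 2 lay below 0, and 1 of these passed. Without a variance trend none of the pathway genes named here passed. Some calls were also lost in further settings: Klf9, Sesn3 and Eomes passed in 8 of 11 other fits, with adjusted p up to 0.109, 0.103 and 0.114. Rac1 and Pml passed in 7 of 11, with adjusted p up to 0.279 and 0.465, and S1pr3 in 6 of 10, with adjusted p up to 0.0907.

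**Figure D3:**
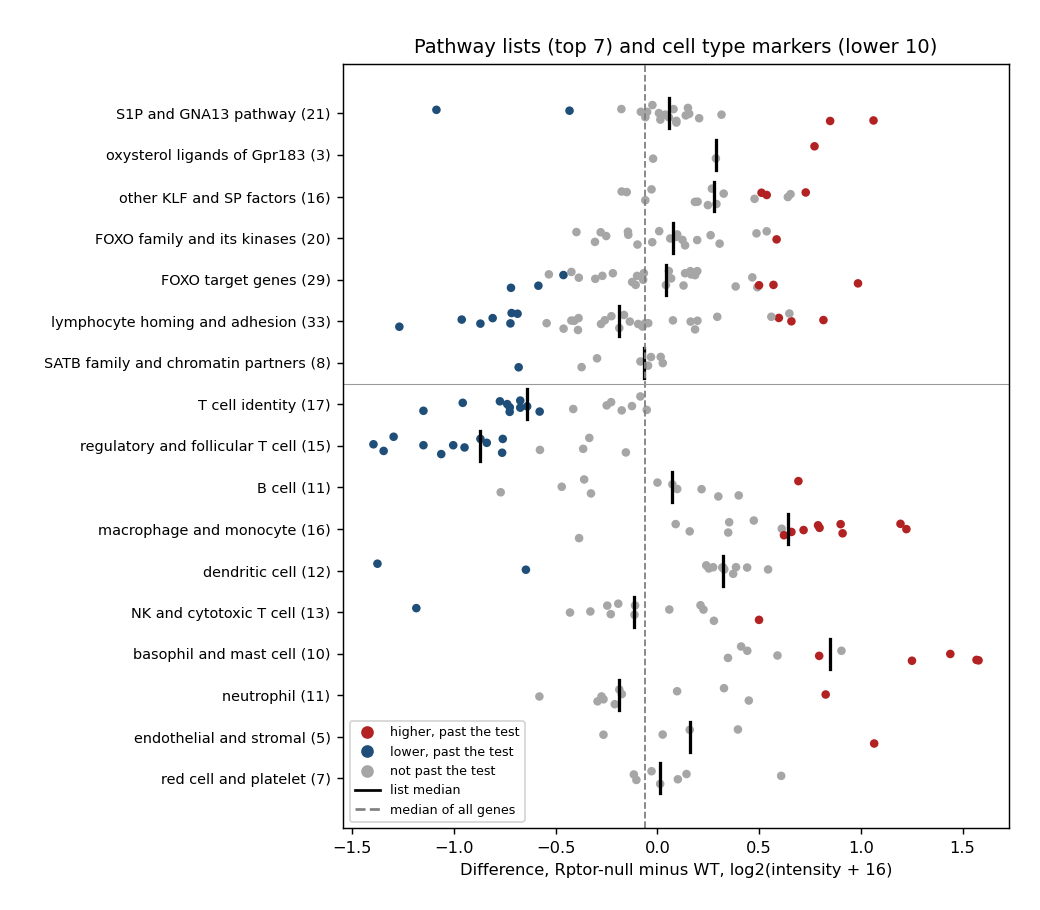
Difference between Rptor-null and WT on the log2(intensity + 16) scale for each gene of the 7 pathway lists and 10 marker lists, with the number of kept genes in brackets. Red and blue points passed the test, black bars are list medians and the dashed line is the median of all genes, -0.060. The KLF and SP list lies mostly to the right of that line, the regulatory and follicular T cell markers lie to its left, and so do the T cell markers except Thy1.

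Markers of the sorted cells and of other cells shifted on the same arrays. T cell identity genes had 10 of 17 lower and none higher (median -0.64), and regulatory and follicular T cell genes had 11 of 15 lower and none higher (median -0.87). Foxp3, the defining factor of the labelled cell type, was chosen outside the naming rule and read 587 and 423 in the Rptor-null pools against 752 in WT, a difference of -0.58 that did not pass (limma adjusted p = 0.119). Macrophage and monocyte markers had 9 of 16 higher and none lower (median 0.64), and their summed intensity was 53046 and 59642 in the Rptor-null pools against 38661 in WT. Basophil and mast cell markers had 5 of 10 higher (median 0.85), with sums of 2922 and 3451 against 1546. Csf1r, the macrophage growth factor receptor gene, read 12569 and 14904 in the Rptor-null pools and 7911 in WT.

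The B cell list had 1 of 11 genes higher and none lower (median 0.074), and its sums were 2255 and 2616 in the Rptor-null pools against 2481 in WT. The gene that passed was Bank1, at 721 and 886 against 488 in WT (limma adjusted p = 0.0387). Cd79a read 50.7 and 76.9 in the Rptor-null pools against 62.7 in WT. Differences below WT in both pools that did not pass were Ms4a1 (-0.33), Cd79b (-0.36), Cd22 (-0.47) and Pou2af1 (-0.77). Those above WT in both pools that did not pass were Blk (0.30), Blnk (0.40) and Pax5 (0.097). The dendritic cell list had 2 of 12 lower and none higher (median 0.32), the NK and cytotoxic list 1 of 13 higher and 1 lower (median -0.11), and the neutrophil list 1 of 11 higher (median -0.19). The endothelial and stromal list had 1 of 5 kept genes higher (median 0.16) and the red cell and platelet list none of 7 in either direction (median 0.014). Klf2, Klf4, S1P receptor and Gpr183 transcripts also occur in several of these cell types. The part of these shifts in the members' values was not tested, and fewer cells of a type cannot be told apart from less RNA per cell.

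RNA measures also differed between the groups. The 3′ to 5′ signal ratio of the Gapdh control was 1.94 and 2.58 in the Rptor-null arrays and 1.11 in WT, and that of beta-actin was 2.65 and 2.87 against 1.40. The part of these ratios in the disagreement among the S1pr2, Gpr183 and Klf3 probe sets was not tested. By level, the median difference was 0.063 in the dimmest of 5 bins of probe sets and -0.13 in the brightest. The part of this offset in the members' differences was not tested.

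**Figure D4:**
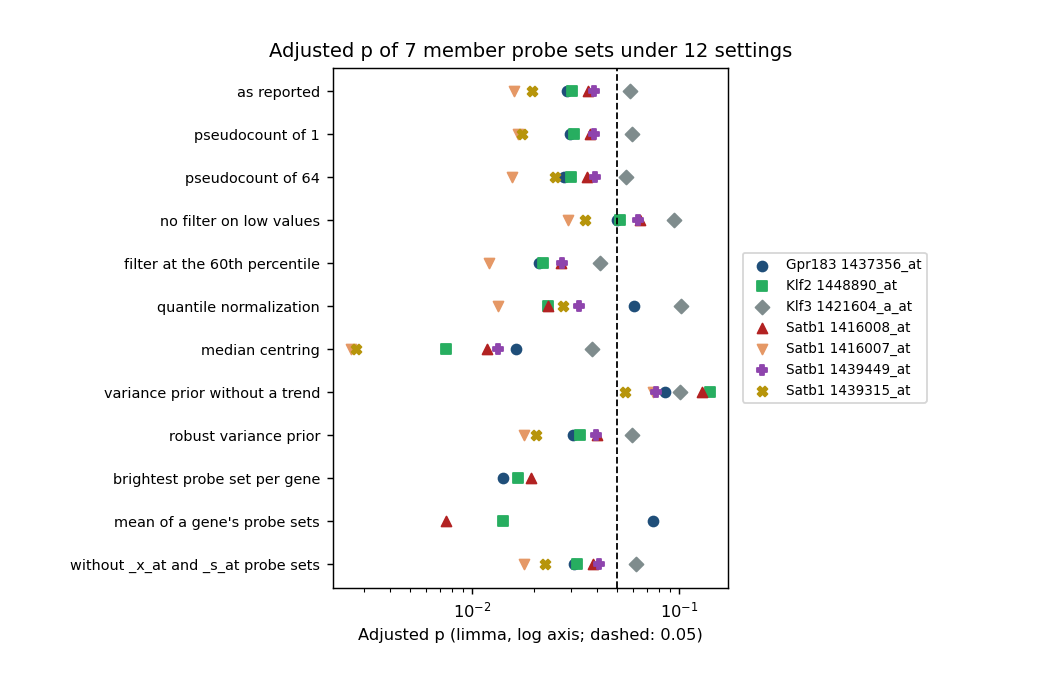
Adjusted p (log axis) of the 7 probe sets that passed in at least 1 setting, under the reported setting and 11 alternatives, with the threshold of 0.05 dashed. Where probe sets were averaged by gene, the point stands for the gene. All points lie right of the threshold without a variance trend, and the Satb1 probe set 1416007_at lies left of it in each of the other settings in which it was fitted.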

How the data were processed

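RNA of sorted Tfr cells was hybridized to single-colour Affymetrix arrays. The deposited values are probe-set intensities on a linear scale. MAS5 is the tool named in the submitters' processing notes, with no version. Their background correction, scaling target and detection calls are not given in the sources used here, so no probe set could be called absent. Precision is limited by the number of arrays, 3 in all.

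Groups came from the sample titles. Of the probe sets, 34945 named 1 gene, 932 several and 9160 none in the platform annotation, beside 64 control probe sets, which were left out. The level of a probe set was taken as the average of its Rptor-null mean and its WT value, and those above the 40th percentile of this level were fitted on log2(intensity + 16) in R 4.3.3 with limma 3.58.1 (lmFit, eBayes with trend), two-sided, with Benjamini-Hochberg adjustment over all 27022. The residual degree of freedom was 1 and the prior had 5.85. The fit was tested on simulated data. The WT array has no replicate and was assumed to vary like the Rptor-null arrays, whose gap gives the only spread.

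The members, the 17 gene lists, the tests and 13 alternatives were chosen with earlier results of these data known. Of 296 list symbols, 270 matched the annotation by symbol or gene number and 247 had a kept probe set; the others were not analysed here. Named genes were all members, up to 4 genes past the test per pathway list by the smaller of their 2 differences, 6 fixed genes, and leading markers. Sex-linked genes were left out of this rule, with Foxp3 added. Klf15 was named for its WT value below the filter level. Promoters were taken from RefSeq, GRCm38.p6, by symbol.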

Additional observations from a re-analysis of the deposited data

How the results depend on the processing

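Of the 24 tested probe sets none changed direction under an alternative in which it or its reported value passed. That rule covers only differences large enough to pass. Among the rest, the sign varied over the alternatives for Klf3 1454666_at, 1441200_at, 1442920_at and 1458487_at, Foxo1 1416981_at and S1pr2 1447880_x_at. For 1454666_at and 1447880_x_at the low ends, -0.12 and -0.072, were averages of the gene's probe sets. Without a variance trend no member was higher or lower, and over all probe sets 1 was higher and 1 lower, against 759 and 1651 as reported. With no filter 2 of 26 members were higher and 0 lower, and 454 and 969 of all 45037 probe sets. With the brightest probe set per gene 2 of 9 members were higher, and 500 of all 12721 genes were higher. With probe sets averaged by gene 2 of 9 members were higher and 0 lower, and 467 of all 12721 genes were higher. Quantile normalization left 0 members lower and 913 of all lower. Median centring gave 2 members lower and 1435 of all higher, and the 60th percentile filter 2 members lower. The share of calls that were higher was 31.5% as reported, 49.1% after quantile normalization and 43.3% after median centring. The median of all probe sets shifted by 0.031 and 0.053 under these scalings.

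At least 2-fold in both pools, 106 of all probe sets were higher and 178 lower. A pseudocount of 1 gave 171 higher and a pseudocount of 64 gave 53 and 78, all of 27022 probe sets. Of only 12721 genes, the brightest probe set per gene gave 50 and 76, and gene averages 27 and 61. Counts of 12721 and of 27022 cannot be compared as they stand. The 1 member at 2-fold, Satb1 1439315_at, fell short of 2-fold with a pseudocount of 64. The 60th percentile filter and the brightest probe set per gene left it out of the fit. Gene averages merged it with the other Satb1 probe sets. The count of 0 members at 2-fold in these last 3 settings is therefore not a smaller difference of that probe set. Leaving out an Rptor-null array leaves 1 array a group and no test; 2-fold counts over all probe sets were then 217 to 236 higher and 271 to 298 lower. No paired analysis was possible because the WT group has 1 array and shares fewer than 2 replicate numbers with the Rptor-null group. Signal over background, which limits the dim probe sets, is not given in the sources used here.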
